A study of Arabidopsis thaliana with 30 samples.

Results

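A set of 10 genes for transcription factors of plant regeneration were followed in detached leaves of Arabidopsis thaliana that were given a hormone stimulus or a mock treatment. They were chosen by locus identifier: WOX5 (AT3G11260), WOX11 (AT3G03660) and WOX12 (AT5G17810) of the WUSCHEL-related homeobox family, PLT1 (AT3G20840), PLT2 (AT1G51190), PLT3 (AT5G10510), PLT5 (AT5G57390) and PLT7 (AT5G65510) of the PLETHORA family, and WIND1 (AT1G78080) and ERF115 (AT5G07310) of the AP2/ERF family. These are 10 of the 38194 loci counted. Of the 10 genes, 9 had at least 1 count in some library, and 7 passed the filter on low counts and could be tested.

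When a plant organ is cut or treated with hormones, some of its cells can take up division again and form callus, roots or shoots. WIND1 is induced at wounds and promotes callus. ERF115 is switched on next to dead cells and drives their replacement. WOX11 and WOX12 act downstream of auxin when detached leaves start new roots, and WOX5 follows them in the forming root tip, where it keeps the organiser of the root stem cells. PLT3, PLT5 and PLT7 give callus the competence to form shoots, and PLT1 and PLT2 specify root stem cells.

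Leaves 1 and 2 of Columbia-0 seedlings, 10 d old, were detached, surface sterilised and kept at 21 °C, with 18 to 20 leaves in a sample. Stimulus leaves were incubated with bikinin at 20 µM, with the synthetic auxin 2,4-D at 2.5 µg/mL and with kinetin, a cytokinin, at 0.5 µg/mL. Bikinin blocks GSK3 kinases and thereby turns on the brassinosteroid pathway. Mock leaves had none of these. Both groups were wounded by detachment and shared the medium, with 0.22% MS salts, 5.0% glucose and 0.2% DMSO. Each group was sampled at 6, 7, 8, 9 and 10 h with 3 replicates, and leaves before detachment were not analysed here. The 3 agents were given together, so the effect of any single one cannot be told apart.

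Libraries held 14981271 to 22729166 counts. The columns for mock 6 h replicate 3 and mock 7 h replicate 3 were identical at every locus, so the 30 columns hold 29 distinct libraries, 15 stimulus and 14 mock. They were counted once in means over all times. Means and ranges at 6 h and at 7 h, and the main tests, keep both copies, so that 1 library enters as 2. Replicate 3 stood apart: plastid loci took 0.556% to 0.872% of its counts in 9 libraries, against 1.37% to 3.09% in the other 20. Of 5 leaf markers, photosynthesis genes, 5 had counts in both groups and 5 were lower in stimulus leaves, with summed levels of 4246 to 7512 CPM (counts scaled to library size) in stimulus and 6604 to 15566 CPM in mock. Of 6 root markers, 5 had counts in stimulus and 4 in mock libraries, with sums of 1.79 to 7.35 CPM in stimulus and 4.62 to 11.0 CPM in mock. Most of each sum was GL2, which is also active in trichomes, with means of 4.38 CPM in stimulus and 7.08 CPM in mock. Of the rest, COBL9 was lower in stimulus (0.0177 against 0.0714 CPM), CASP1 higher (0.156 against 0.0939 CPM) and CASP4 alike (0.0890 and 0.0891 CPM). RHD6 was at 0 in both, and EXPA7 at 0 in mock. The 3 shoot apex markers summed to at most 0.123 CPM in stimulus and 0.215 CPM in mock, with CLV3 at 0 in stimulus. The 3 embryo markers summed to 0.0537 to 0.691 CPM in stimulus and 0.0578 to 0.713 CPM in mock. The part of these differences in the results below was not tested. In such bulk samples, fewer cells of a type and less RNA per cell cannot be told apart.

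Averaged over the 5 times, PLT7, ERF115 and PLT3 rose with the stimulus, and WOX5 fell. PLT5 and WIND1 did not pass the test. WOX11 had far more counts in stimulus than in mock leaves, but it passed the count filter only through its stimulus libraries, so it had to differ if it was tested at all. Of the 6 tested genes other than WOX11, 4 passed an adjusted p of 0.05 in edgeR's quasi-likelihood test, 3 higher and 1 lower, and with WOX11 the tally was 5 of 7. Among all 21052 genes tested 56.7% passed, 29.7% higher and 27% lower, so the share among these genes was near the background. The median log2 fold change was 0.45 over the 6 genes and 0.50 over the 7, against 0.02 over all genes. These calls differed in how they held. PLT7 passed in replicates 1 and 2, in replicate 3 and on counts summed over times. WOX5 passed in both replicate subsets but not on summed counts (adjusted p = 0.112). ERF115 passed in replicates 1 and 2 but not in replicate 3 (0.157) or on summed counts (0.0726). PLT3 passed in both subsets but not without the identical columns (0.0680) or on summed counts (0.374). Calls in other fits are read against 65.4% of all genes in replicates 1 and 2, 68.9% in replicate 3, 56.2% without the identical columns, 69.2% with replicate number as a block and 8.21% on summed counts. Below, pairs are stimulus and mock libraries of the same number and hour, 15 in all. As the identical mock column enters 2 of them, counts over the 14 pairs without its 7 h copy follow in brackets for the genes above.

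**Figure D1:**
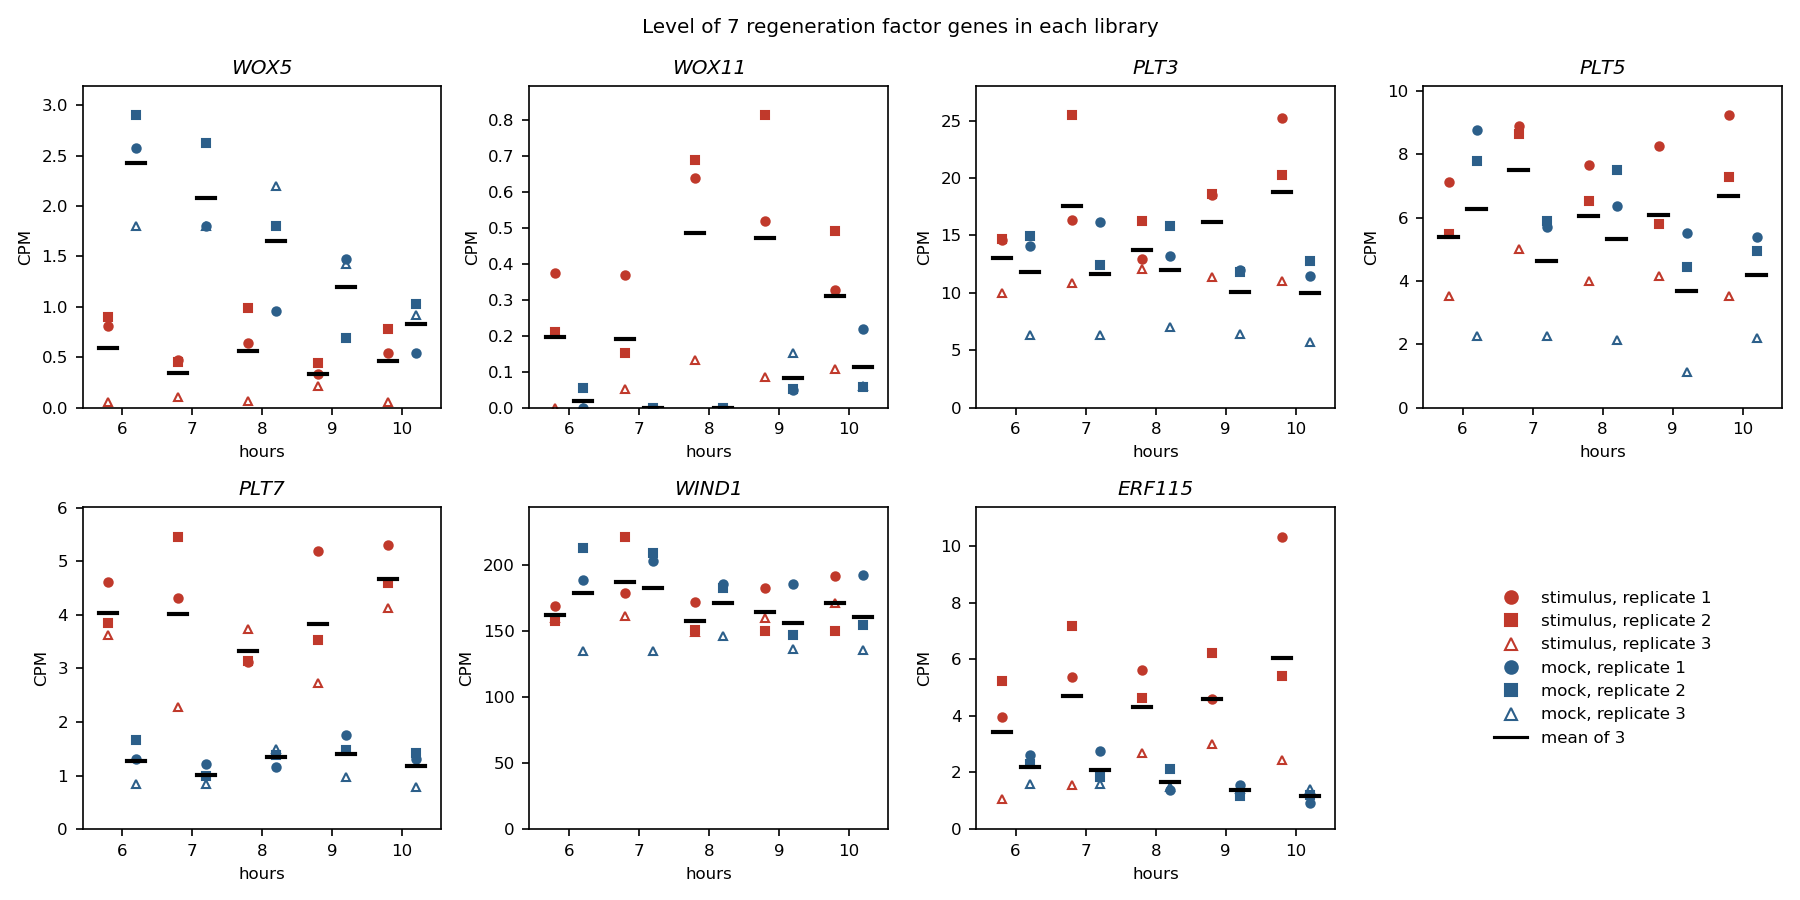
Level of the 7 tested genes in CPM (y axis, from 0) at 6 to 10 h (x axis), with stimulus in red left of mock in blue, 1 symbol per replicate number and a black line at the mean of 3 columns. The PLT7 points of stimulus and mock are separate at every hour, those of WIND1 overlap at every hour, and open triangles (replicate 3) lie lowest in each PLT3 and PLT5 group.

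The levels spanned a wide range. Per kilobase of exon, which lets genes of different length be compared, WIND1 led in both groups, with 78.7 ± 9.14 CPM per kb in stimulus (SD, n = 15) and 80.6 ± 13.4 in mock (n = 14). PLT3 came next, with 5.14 ± 1.60 CPM per kb in stimulus and 3.71 ± 1.18 in mock. In stimulus leaves there followed ERF115 at 4.19 ± 2.14, PLT5 at 2.55 ± 0.805, PLT7 at 2.04 ± 0.488, WOX5 at 0.435 ± 0.303 and WOX11 at 0.132 ± 0.101 CPM per kb. Of these neighbours, only WIND1 and PLT3, and PLT7 and WOX5, had library ranges that did not overlap. In mock leaves the order was PLT5 at 2.01 ± 0.937, ERF115 at 1.55 ± 0.509, WOX5 at 1.54 ± 0.716, PLT7 at 0.654 ± 0.151 and WOX11 at 0.0182 ± 0.0260 CPM per kb. There, the ranges of WIND1 and PLT3, and of PLT7 and WOX11, did not overlap, and those of the other neighbours did.

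**Figure D2:**
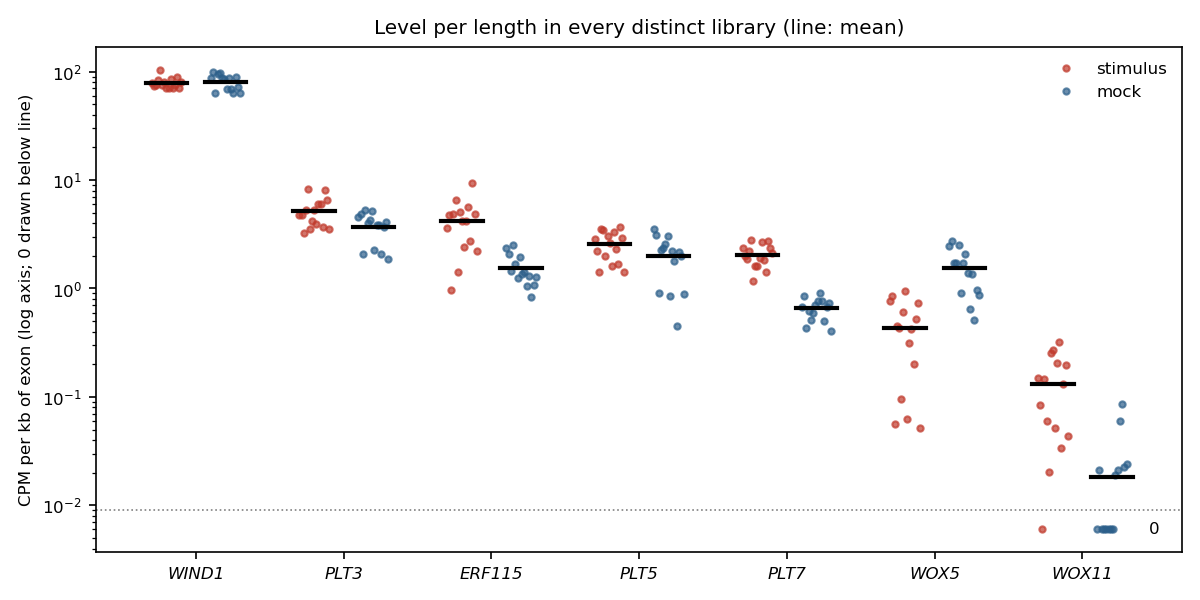
Level of the 7 tested genes in CPM per kb of exon (y axis, logarithmic, with libraries at 0 drawn below the dotted line) in 15 stimulus libraries (red, left) and 14 distinct mock libraries (blue, right), ordered by the stimulus mean; black lines are means. WIND1 lies above all others, and WOX5 and PLT7 change places between the groups.

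The remaining genes were at or near 0. PLT1, a root stem cell regulator, had no count in any of the 29 libraries. Its close relative PLT2 had 2 counts, in stimulus 8 h replicate 2 and stimulus 10 h replicate 1, and none in mock. WOX12, which acts with WOX11 in rooting, had 1 count, in mock 8 h replicate 2. In a library with no count, the limit that a count of 0 allows (3 counts) was 0.122 to 0.226 CPM, so lower levels may be missed there. It is not a limit of detection: the single counts of PLT2 stood at 0.0430 and 0.0547 CPM, and that of WOX12 at 0.0476 CPM. These limits cover counting error only.

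WOX11, which is induced by auxin in the founder cells of new leaf-borne roots, was rare and found mostly in stimulus leaves. It had 108 counts in the 15 stimulus libraries and 11 in the 14 mock libraries, a stimulus over mock ratio of 8.26 after scaling for depth (95% exact interval for counting error, 4.44 to 17.0). In the order of replicates 1 to 3, stimulus libraries held 7, 4 and 0 counts at 6 h, against 0, 1 and 0 in mock libraries. At 7 h the stimulus libraries held 7, 3 and 1 counts and the mock libraries none. The groups were thus separate at 7 h but not at 6 h, where stimulus replicate 3 had no count. At 8 h the stimulus libraries held 15, 16 and 2 counts, and again the mock libraries had none. At 9 h there were 11, 20 and 2 counts in stimulus libraries, against 1, 1 and 2 in mock libraries. At 10 h there were 6, 12 and 2 counts in stimulus libraries, against 4, 1 and 1 in mock libraries. The highest stimulus counts therefore came at 8 and 9 h, and 10 of the 11 mock counts at 9 and 10 h.

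By hour, the WOX11 level in stimulus leaves was 10.3-fold at 8 h and 3.52-fold at 7 h over a floor of 3 counts in the mock group. These values leave out the counting error of the stimulus counts and are not lower limits of the ratio. The stimulus level was 6.35-fold higher than mock at 9 h (interval 2.26 to 24.7) and 2.86-fold at 10 h (1.11 to 8.69). At 6 h the ratio was 10.6 with a wide interval (1.54 to 456). These intervals cover counting error and not the spread between replicates. With no count filter, so that all loci with a count were tested, the average had an adjusted p of 4.73e-05 in edgeR, 8 h 0.0135 and 7 h 0.0633. The filtered fits are not read as support, for the reason given above. Replicate 3 differed from the others. Its ratio was 1.56 (0.356 to 9.34) from 7 stimulus and 3 mock counts, against 8.96 (3.57 to 28.9) in replicate 1 and 15.9 (5.17 to 79.5) in replicate 2.

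WOX5, which maintains the quiescent centre of roots and is also active in callus, fell. In the order of replicates 1 to 3, it had 0.805, 0.897 and 0.0595 CPM in stimulus leaves at 6 h, against 2.58, 2.90 and 1.80 CPM in mock leaves. At 7 h it had 0.473, 0.455 and 0.101 CPM in stimulus leaves, against 1.80, 2.63 and 1.80 CPM in mock leaves. Every stimulus library lay below every mock library at these hours. At 8 h the levels were 0.639, 0.989 and 0.0655 CPM in stimulus leaves, against 0.961, 1.81 and 2.20 CPM in mock leaves. At 9 h they were 0.331, 0.447 and 0.214 CPM in stimulus leaves, against 1.48, 0.687 and 1.43 CPM in mock leaves. The groups were separate at 9 h and overlapped at 8 h, by stimulus replicate 2 alone. At 10 h, with 0.547, 0.779 and 0.0543 CPM in stimulus leaves and 0.543, 1.02 and 0.916 CPM in mock leaves, they overlapped.

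The average log2 fold change of WOX5 was -1.75 ± 0.32 (SE, adjusted p = 8.95e-05), and it was lower in stimulus leaves in 14 of 15 pairs (13 of 14). Its mean was 0.457 ± 0.318 CPM in stimulus (SD, n = 15) and 1.62 ± 0.754 CPM in mock (n = 14). By hour the log2 fold changes were -2.02, -2.58, -1.49, -1.83 and -0.81 from 6 to 10 h. Only 7 h passed (adjusted p = 0.0196), and not when mock 7 h replicate 2 or stimulus 7 h replicate 3 was left out (0.0625 and 0.0953). Leaving out replicate 3 of stimulus 8 h or of stimulus 10 h brought 6 h past the threshold (0.0459 and 0.0478). In DESeq2, 6 and 9 h also passed (0.0232 and 0.0415, with 14.6% and 20.9% of all genes), and with the block, 6, 8 and 9 h (0.0116, 0.0407 and 0.0244). The fall was steepest in replicate 3, whose 5 stimulus libraries held 10 WOX5 counts in all. There the log2 fold change was -3.88, against -1.26 in replicates 1 and 2 (adjusted p = 3.46e-05), so the average moved with the replicate but kept its direction and its call. Mock leaves alone held less WOX5 with time. Their means were 2.43, 2.08, 1.65, 1.20 and 0.828 CPM from 6 to 10 h. The means at 6 and 7 h share the identical column of replicate 3, as does the trend with all libraries. That trend, -0.39 per hour on the log2 scale, did not pass with all libraries (adjusted p = 0.382) and passed with replicates 1 and 2 (-0.46, adjusted p = 0.00195, with 22.8% of all genes).

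**Figure D3:**
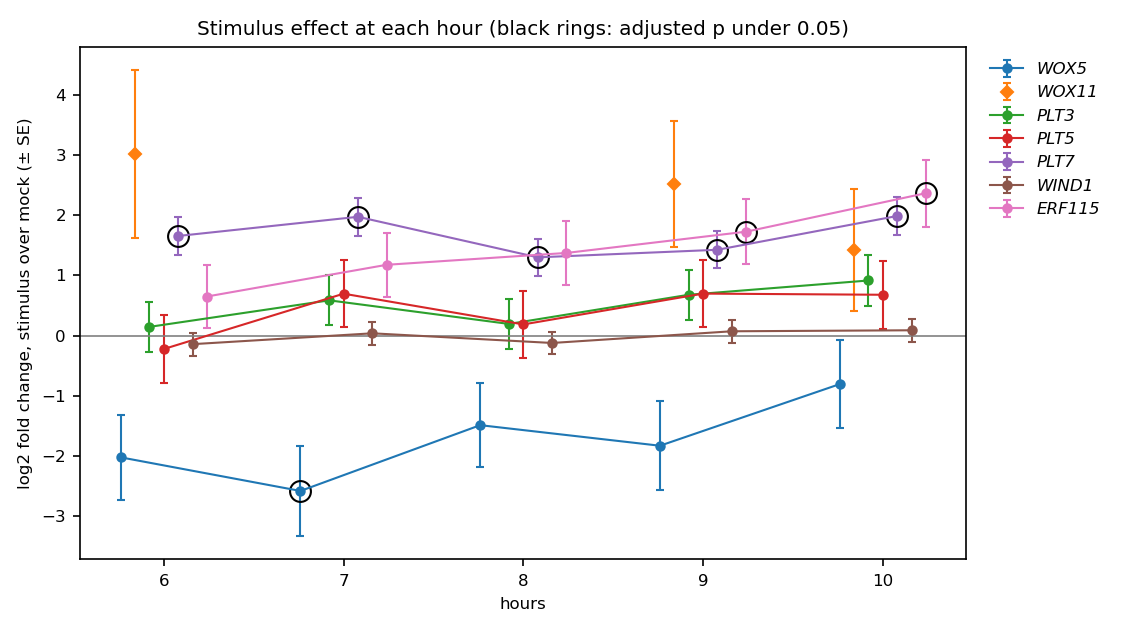
Log2 fold change, stimulus over mock, with its SE (y axis) at 6 to 10 h (x axis) for the 7 tested genes, offset sideways for clarity; black rings mark an adjusted p under 0.05. WOX11 is not drawn at 7 and 8 h, where mock had no count. PLT7 is ringed at all 5 hours, ERF115 at 9 and 10 h, and WOX5 at 7 h.

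Among the PLETHORA genes, which encode AP2-domain proteins that act by dose in meristems, PLT7 rose most evenly. In the order of replicates 1 to 3, it had 4.61, 3.85 and 3.63 CPM in stimulus leaves at 6 h, against 1.32, 1.67 and 0.835 CPM in mock leaves. At 7 h it had 4.31, 5.46 and 2.28 CPM in stimulus leaves, against 1.22, 0.993 and 0.835 CPM in mock leaves. The groups were apart at both hours, the lowest stimulus value being replicate 3 at 7 h. At 8 h it had 3.11, 3.14 and 3.73 CPM in stimulus leaves, against 1.16, 1.38 and 1.50 CPM in mock leaves. At 9 h it had 5.20, 3.54 and 2.74 CPM in stimulus leaves, against 1.76, 1.48 and 0.978 CPM in mock leaves. At 10 h the stimulus libraries had 5.30, 4.59 and 4.13 CPM and the mock libraries 1.30, 1.42 and 0.794 CPM. No stimulus library fell within the mock range at any hour, a pattern that 6.62% of all tested genes shared.

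The average log2 fold change of PLT7 was 1.67 ± 0.14 (adjusted p = 1.46e-09), with 3.98 ± 0.950 CPM in stimulus (n = 15) and 1.27 ± 0.295 CPM in mock (n = 14). It was higher in 15 of 15 pairs (14 of 14). Every hour passed: the log2 fold changes were 1.65, 1.97, 1.30, 1.42 and 1.98 from 6 to 10 h, with adjusted p of 0.00158, 0.000184, 0.00718, 0.00294 and 0.000131. Fitted to the 6 libraries of 1 hour alone, the calls at 6 and 9 h were lost (adjusted p = 0.0694 and 0.0592). The 3 replicate numbers gave nearly the same mean difference in log2 CPM, 1.65, 1.49 and 1.64. When counts were summed over the 5 times, so that each replicate number gave 1 value per treatment, PLT7 was the only one of the 6 genes still tested to pass (adjusted p = 0.0145).

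PLT3 rose slightly. Its stimulus libraries ranged from 9.94 to 25.5 CPM, with a mean of 15.9 ± 4.95 (n = 15), and its mock libraries from 5.74 to 16.2 CPM, with a mean of 11.5 ± 3.63 (n = 14). The groups overlapped at every hour, and 13 of 15 pairs (12 of 14) were higher in stimulus. The average log2 fold change was 0.50 ± 0.18 (adjusted p = 0.0242), and by hour it was 0.14, 0.58, 0.19, 0.68 and 0.91, of which none passed. The average call was lost without the identical columns (0.38, adjusted p = 0.0680) and without stimulus 7 h replicate 2 (0.43, adjusted p = 0.0513). With the block the average was 0.54 (adjusted p = 4.52e-06), and 7, 9 and 10 h passed (0.0128, 0.00468 and 0.000439). That fit called 30.4%, 37.9%, 33.1%, 37.1% and 39.5% of all genes from 6 to 10 h. PLT3 overlaps AT5G10520, on the opposite strand, by 454 bases. That neighbour had 5.84 ± 2.09 CPM in stimulus and 1.66 ± 0.593 CPM in mock, and the share of its reads counted for PLT3 was not tested.

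PLT5 did not pass. It had 3.51 to 9.24 CPM in stimulus libraries (mean 6.35 ± 2.00, n = 15) and 1.13 to 8.77 CPM in mock libraries (mean 5.00 ± 2.33, n = 14), which overlapped at every hour. The average log2 fold change was 0.41 ± 0.25 (95% interval -0.08 to 0.89, adjusted p = 0.170), with 12 of 15 pairs higher (11 of 14). By hour it was -0.22, 0.69, 0.18, 0.70 and 0.68. With the block it was 0.48 and passed (adjusted p = 0.000236), as did 7, 9 and 10 h (0.0104, 0.00759 and 0.0223). It also passed within replicates 1 and 2 (0.29, adjusted p = 0.00654) and within replicate 3 (0.98, adjusted p = 0.00106). On counts summed over times it did not pass, either without the block (adjusted p = 0.615) or with it (0.148).

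ERF115, which stimulates divisions around damaged cells, rose in replicates 1 and 2. In the order of replicates 1 to 3, it had 3.97, 5.23 and 1.07 CPM in stimulus leaves at 6 h, against 2.63, 2.31 and 1.61 CPM in mock leaves. At 7 h it had 5.36, 7.18 and 1.57 CPM in stimulus leaves, against 2.77, 1.84 and 1.61 CPM in mock leaves. At both hours replicate 3 was lower in stimulus than in mock, and the groups overlapped. At 8 h the levels were 5.62, 4.64 and 2.69 CPM in stimulus leaves, against 1.37, 2.14 and 1.50 CPM in mock leaves. At 9 h they were 4.59, 6.22 and 2.99 CPM in stimulus leaves, against 1.57, 1.16 and 1.43 CPM in mock leaves. At 10 h they were 10.3, 5.41 and 2.45 CPM in stimulus leaves, against 0.924, 1.20 and 1.40 CPM in mock leaves. From 8 h on, every stimulus library exceeded every mock library.

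The average log2 fold change of ERF115 was 1.46 ± 0.24 (adjusted p = 2.14e-05), with 4.62 ± 2.36 CPM in stimulus (n = 15) and 1.70 ± 0.561 CPM in mock (n = 14), and 13 of 15 pairs (13 of 14) were higher. By hour it was 0.65, 1.17, 1.37, 1.72 and 2.36. It passed at 9 and 10 h (adjusted p = 0.0321 and 0.00449). The 9 h call was lost without mock 9 h replicate 1, 2 or 3 or stimulus 9 h replicate 1 or 2 (adjusted p = 0.0690, 0.102, 0.0782, 0.0650 and 0.121). The 7 h difference passed without stimulus 7 h replicate 3 (0.0481), and 7 and 8 h passed with the block (0.0400 and 0.0176). The average was 1.75 in replicates 1 and 2 (adjusted p = 1.41e-08) and 0.43 in replicate 3 (adjusted p = 0.157).

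WIND1, the most abundant of these factors, showed no difference that passed. It had 149 to 221 CPM in stimulus libraries, with a median of 161, and 135 to 213 CPM in mock libraries, with a median of 184, and the groups overlapped at every hour. Its means were 168 ± 19.5 CPM in stimulus and 172 ± 28.6 CPM in mock. The average log2 fold change was -0.01 ± 0.08 (adjusted p = 0.899), with a 95% interval of -0.18 to 0.15. By hour it ran from -0.14 to 0.09. The pairs split by replicate number, with 0 of 5 higher in stimulus in replicate 1, 2 of 5 in replicate 2 and 5 of 5 in replicate 3. Replicate 3 alone gave 0.18 (adjusted p = 0.0228), and replicates 1 and 2 gave -0.10 (adjusted p = 0.200).

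**Figure D4:**
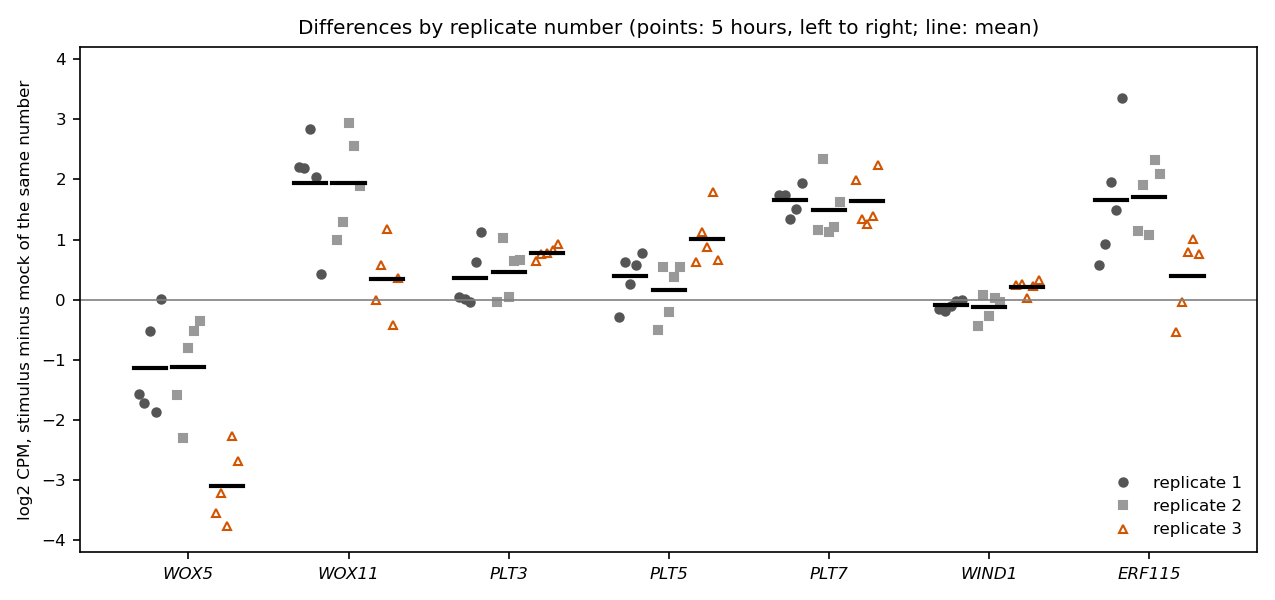
Difference in log2 CPM, stimulus minus mock of the same replicate number and hour (y axis), for the 7 tested genes, with 5 points per replicate number in order of hour and a black line at their mean. PLT7 has the same size of difference in all 3 numbers (means 1.65, 1.49 and 1.64), WOX5 is lowest in replicate 3 (-3.10), and ERF115 is smallest there (0.40).

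Hour by hour, the number of the 7 genes that passed was 1 at 6 h, against 9.87% of all genes. It was 2 at 7 h (17% of all genes), 2 at 8 h (12.9%), 2 at 9 h (16.5%) and 2 at 10 h (19.1%). Without WOX11 it was 1 of 6 at 8 h and the same at the other hours. All 3 stimulus libraries lay above all 3 mock libraries for 1 gene at 6 h, against 14% of all genes, 2 at 7 h (16.6%), 3 at 8 h (14.7%), 2 at 9 h (18%) and 2 at 10 h (18.7%). These were PLT7 at every hour, ERF115 at 8, 9 and 10 h, and WOX11 at 7 and 8 h. WOX11 carries no weight here, as it passed the count filter only through stimulus. All 3 stimulus libraries lay below all 3 mock libraries for WOX5 at 6, 7 and 9 h (14.9%, 17.3% and 17.2% of all genes). The treatment by time interaction, which asks whether the effect differs between hours, called 0 of the 7 and 0% of all genes in edgeR. At an unadjusted p under 0.05 there were 336 genes and 0 of the 7, and DESeq2 called 15 genes. The difference between the hourly trends of stimulus and mock also called none of the 7, against 0.019% of all genes. Only ERF115 had an unadjusted p under 0.05, at 0.40 ± 0.17 per hour (adjusted p = 0.845), and it passed in replicates 1 and 2 alone (0.44, adjusted p = 0.0200, with 7.71% of all genes). None of the 7 passed for a trend within stimulus (1.02% of all genes) or within mock leaves (0.722%).

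The wider families and partners were read from 8 lists of related genes. Their calls on average are read against 29.7% of all genes higher and 27% lower. Of 12 other WOX genes, 11 had a count and 3 were tested, with 1 higher, 1 lower and 1 not passing. WOX13, which acts in callus and organ reconnection, rose by 0.63 ± 0.07 (log2, adjusted p = 3.64e-08), to 30.6 ± 3.95 CPM in stimulus, against 19.6 ± 2.09 CPM in mock. WOX1, a leaf blade gene, fell by 0.45 ± 0.17 (adjusted p = 0.0311). That call was lost in replicates 1 and 2 (-0.08, adjusted p = 0.348), without the identical columns (0.0714), and without mock 7 h replicate 3 or replicate 3 of stimulus at 8, 9 or 10 h (0.0518, 0.0525, 0.0539 and 0.0545). The cambium regulator WOX4 stood at -0.22 ± 0.40 (adjusted p = 0.661).

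Of 3 further genes close to PLETHORA, 2 had a count and 1 was tested and rose. This was ANT, a growth regulator of lateral organs, at 1.90 ± 0.21 (adjusted p = 1.11e-07), with 32.6 ± 12.1 CPM in stimulus and 8.94 ± 2.64 CPM in mock, higher in 15 of 15 pairs. BBM, which can trigger embryo formation when overexpressed, was below the filter and is named after its values were seen. It had 60 counts in stimulus and 4 in mock libraries, a stimulus over mock ratio of 12.6 (95% exact interval for counting error, 4.68 to 47.8).

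Of 3 WIND1 relatives, 2 were tested, 1 fell and none rose. AT1G22190 fell by 1.37 ± 0.24 (adjusted p = 3.95e-05), to 20.5 ± 8.56 CPM in stimulus, against 54.7 ± 18.1 CPM in mock, and was lower in 15 of 15 pairs. The call was lost on counts summed over times (adjusted p = 0.0903). ESR1 and ESR2, of which ESR1 is a direct target of WIND1 in callus and shoot formation, were both below the filter. ESR1 had 57 counts in stimulus and 13 in mock libraries, a stimulus over mock ratio of 3.69 (2.00 to 7.35), and ESR2 had 4 in stimulus and 1 in mock.

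All 8 relatives and partners of ERF115 were tested, of which 2 were called higher and 5 lower, ERF109 among the 5. Among all genes 29.7% were higher and 27% lower. PAT1, the GRAS protein that pairs with ERF115, rose by 1.54 ± 0.15 (adjusted p = 1.61e-08), with 91.9 ± 19.4 CPM in stimulus and 32.3 ± 8.43 CPM in mock. RAP2.6L, which is active at cut stems, rose by 0.60 ± 0.11 (adjusted p = 7.01e-05). ERF109, a jasmonate and wound-responsive gene, had a log2 fold change of -4.15 ± 0.58, with 0.159 ± 0.113 CPM in stimulus and 3.77 ± 5.78 CPM in mock, where 1 library reached 22.3 CPM. ERF109 passed the count filter only through mock, where it is high, so it had to differ if tested. With no filter its adjusted p was 1.68e-06. AT5G61890 fell by 0.81 ± 0.11 (adjusted p = 1.23e-06). ERF109 and AT5G61890 were lower in 15 of 15 pairs.

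In the auxin callus module 3 of 6 genes were tested and 1 rose, ARF19, an auxin response factor, at 2.62 ± 0.35 (adjusted p = 1.56e-06). It had 50.2 ± 27.3 CPM in stimulus and 8.41 ± 2.86 CPM in mock, and missed the threshold on counts summed over times (adjusted p = 0.0599). Of 11 shoot and root pole regulators 5 were tested, with 1 called higher and 3 lower. Among all genes 29.7% were higher and 27% lower. The 3 were MGP, CUC3 and SCR. SCR had a log2 fold change of -0.90 ± 0.14 (adjusted p = 1.04e-05) and was lower in 15 of 15 pairs. It did not pass on summed counts (0.0782). SHR, a mobile regulator of root layers, rose by 0.44 ± 0.08 (adjusted p = 0.000147), but not in replicate 3 (0.02, adjusted p = 0.847) or on summed counts (0.154). MGP, a partner of SHR, had a log2 fold change of -2.07 ± 0.39, which did not pass on summed counts (adjusted p = 0.113). Like CUC3, it passed the count filter only through mock, where it is high, so these 2 had to differ if tested. With no filter the adjusted p was 0.000158 for MGP and 7.29e-08 for CUC3. CUC3, a boundary gene of shoot organs, had 1 count in stimulus and 141 in mock libraries, a stimulus over mock ratio of 0.00597 (0.000150 to 0.0338). Both tested genes of 3 NAC factors rose. ANAC071, which is needed for tissue reunion, rose by 3.34 ± 0.34 (adjusted p = 3.40e-08), with 61.1 ± 28.3 CPM in stimulus and 6.19 ± 2.86 CPM in mock. ANAC096 rose by 1.68 ± 0.21 (adjusted p = 5.71e-07) but missed on summed counts without the identical columns (0.0545). Medians of the lists ran from -0.90 in the pole regulators to 2.51 in the NAC factors, against 0.02 over all genes. The first rests on 5 tested genes, among them MGP and CUC3, which had to differ if tested. The second rests on 2 genes, so neither is read as a shift of its list.

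**Figure D5:**
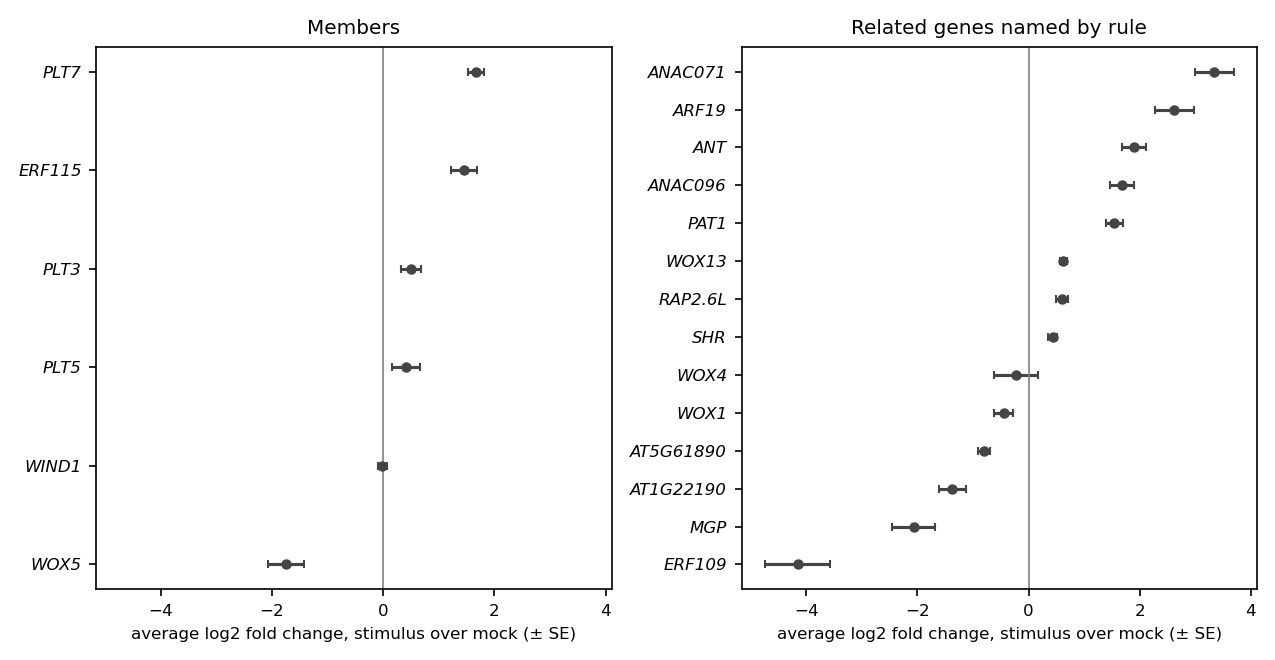
Average log2 fold change over 5 times, stimulus over mock, with its SE (x axis) for 6 tested genes (left; WOX11 is left out because mock had no count at 2 hours) and for 14 related genes (right; CUC3 is left out for its single stimulus count). Both panels hold genes on either side of 0, from ERF109 at -4.15 to ANAC071 at 3.34.

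Genes with a like pattern were sought by the root-mean-square difference between log2 levels over the 10 group means, each gene centred on its own mean, among 17020 or 17021 genes. Nearest to PLT7 were GATA16 (0.148), the auxin-induced IAA2 (0.150) and AT5G50090 (0.152). Nearest to ERF115 were AGL15 (0.130), the cellulase gene GH9C2 (0.152) and the expansin gene EXPA4 (0.158). Nearest to PLT3 were AT2G05385 (0.0708), the receptor-like gene CRN (0.0802) and AT4G39840 (0.0817). WOX5 lay nearest to AT2G34620 (0.175), AT4G01130 (0.207) and JAL34 (0.220), and WOX11 to AT3G45930 (0.204), AT3G27360 (0.222) and MLO3 (0.225). These values describe likeness over groups that share the same libraries and carry no test.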

How the data were processed

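RNA from ribosome-depleted, strand-specific libraries was sequenced. The authors deposited raw counts per locus for 38194 loci in 30 columns, per the file headers. The submitters' processing notes name BWA and TAIR10. For the counting tool and gene models, the answer is not given in the sources used here. Names and exon lengths came from the TAIR10.1 annotation, to which 37751 loci matched by locus tag. Gene and exon coordinates of that annotation gave the exon lengths, the overlap at PLT3 and the nested loci. No sequences were read, and the promoter words planned for a search were not used here. Strand seems to have been used in counting: among nested loci, the outer one's counts reached the inner one's in each library for 55 of 57 same-strand pairs and for 10 of 89 opposite-strand pairs.

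The 10 genes and the lists were chosen with earlier results of these data known. The main test was that of edgeR 4.0.16, run in R 4.3.3 (filterByExpr, 21052 genes, TMM, quasi-likelihood test, 1 mean per group, Benjamini-Hochberg over all genes, threshold 0.05). Contrasts were stimulus minus mock at each hour, their average over 5 times, the interaction, and hourly trends. The average takes the 5 times of a replicate number as separate libraries. CPM used TMM-scaled library sizes, and log2 CPM a prior count of 2. The floor was 3 counts. The labels name biological replicates but not their plants or batches, so p-values measure only the spread between these samples. Library totals of 14981271 to 22729166 counts set the precision of low genes.

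Same-numbered stimulus and mock libraries deviated together from their group means (correlation 0.158 to 0.486, over 0.1 in 15 of 15). Numbers were taken as pairs, although only 9 of 15 libraries were closest to their own number. These were replicate 3 at every hour, replicate 1 at 6 h and replicate 2 at 8, 9 and 10 h. As replicate 3 stood apart from the means that all 3 share, such correlations can arise without pairing of replicates 1 and 2. They cannot show such pairing, which is a choice made from the data and is not given by the labels. Alternatives were DESeq2 1.42.0, its size factors, other count filters, no organelle loci, the replicate block, subsets of replicates, hours and libraries, counts summed over times, and no identical columns. Of these, 2 combinations without the identical columns were added after the data were seen. The main edgeR test was run on simulated data for the average, the single hours and the difference of hourly trends. The simulated libraries were independent, with the same scatter for all genes, no offset of replicate 3 and no identical columns. That run therefore cannot show how calls hold where these features are present. The interaction, the trends within each treatment, the alternatives and the exact count ratios were not checked in this way.

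From each related list, up to 2 genes each way with the largest average log2 fold change past the threshold were named, plus every tested WOX and PLETHORA-like gene. SCR was named in addition, as MGP and CUC3 had passed the count filter only through mock. For each of the 10 genes past the threshold on average, the 3 genes of mean log2 CPM of at least 1 with the nearest pattern were named. RAP2.6L, PAT1 and other symbols are those of the annotation, which gave none for 5 list loci.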

Additional observations from a re-analysis of the deposited data

How the results depend on the processing

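Directions of differences called in the main fit held in every alternative that was run. The number of the 7 genes called on average, 5 with all libraries, was 1 on counts summed over times, 1 on sums with the replicate block and 1 on sums without the identical columns, and 4 to 5 with any 1 library left out. With the replicate block it was 3 at 6 h (30.4% of all genes), 6 at 7 h (37.9%), 4 at 8 h (33.1%), 6 at 9 h (37.1%) and 4 at 10 h (39.5%). With the block and without the identical columns it was 2, 4, 6 and 4 at 6, 7, 9 and 10 h, against 4294, 5821, 7845 and 8321 genes in all. With replicates 1 and 2 only it was 4 at 6 h, 6 at 7 h, 5 at 9 h and 4 at 10 h, against 6259, 8002, 7945 and 8260 of 21066 genes. There it was also 1 for the difference of trends (7.71% of all genes) and 3 for the mock trend (22.8%). The mock trend count was 1 with the block and no identical columns, against 1254 genes in all. From the libraries of 1 hour alone it was 0 at 6 h, 1 at 8 h and 1 at 9 h, against 278, 713 and 1449 genes in all. The stricter count filter, which removed WOX11, gave 1 at 8 h, and DESeq2 gave 2 at 6 h. With 1 library left out the counts ran from 1 to 2 at 6 h, 1 to 3 at 7 h and 1 to 2 at 9 h, with 2 at 8 and 10 h. These counts include WOX11 wherever it was tested. The replicate block changed no call of a named gene beyond those given with the results, except that WOX11 also passed at 6, 7 and 9 h. WOX11 was too low to be tested under the stricter filter, in replicate 3 alone or on summed counts.

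Signs changed only in differences that had not passed in the main fit. PLT3 at 6 h became -0.15 without the identical columns. WIND1 became 0.18 on average in replicate 3, where it passed. It also became -0.12 at 7 h without the identical columns (-0.056 with the block too), and -0.0063 at 7 h and -0.050 at 10 h in replicates 1 and 2. WOX4 became 0.20 in replicates 1 and 2. With 1 library left out, PLT3 ran from -0.15 to 0.35 at 6 h and from -0.078 to 0.44 at 8 h, and PLT5 from -0.62 to 0.095 at 6 h and from -0.19 to 0.51 at 8 h. WIND1 ran from -0.049 to 0.016 on average, -0.31 to 0.0024 at 6 h, -0.14 to 0.15 at 7 h, -0.018 to 0.21 at 9 h and -0.021 to 0.23 at 10 h. The causes were not tested.

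Over all genes, calls on average were 11927, against 1824, 3653 (block) and 1671 (no identical columns) on summed counts. From 6 to 10 h they were 2078, 3587, 2722, 3477 and 4017, against 6395, 7970, 6977, 7818 and 8318 with the block, 4294, 5821, 7011, 7845 and 8321 with the block and no identical columns, 6259, 8002, 7374, 7945 and 8260 in replicates 1 and 2, and 278, 1695, 713, 1449 and 1867 within 1 hour. Interaction calls were 0, against 15 (DESeq2), 93 (block), 171 (block, no identical columns) and 596 (replicates 1 and 2). Trend difference calls were 4, and 0 to 1624 elsewhere. Stimulus trend calls were 214, and 4 to 3495 elsewhere, and mock trend calls 152, and 13 to 4803.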

Other observations

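For 3 low genes, BBM, ESR1 and WOX11, picked after their values were seen, counts are given by replicate, and other low genes were not examined in this way. In replicate 3, 1 of the 60 stimulus counts of BBM, 3 of the 57 of ESR1 and 7 of the 108 of WOX11 were found, although 5 of the 15 stimulus libraries carry that number. In replicates 1 and 2, BBM had 59 counts in stimulus and 4 in mock libraries (ratio 13.5, 95% exact interval 5.02 to 51.3), and ESR1 had 54 in stimulus and 13 in mock (3.81, 2.05 to 7.62). CUC3 went the other way in both sets, with 1 count in stimulus and 100 in mock libraries of replicates 1 and 2, and 0 in stimulus and 41 in mock libraries of replicate 3. Without a count filter, edgeR gave an adjusted p of 0.000773 for BBM and 0.0577 for ESR1.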
